A study of Mus musculus with 4 samples.

Results

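Known regulator and marker genes of conventional type 1 dendritic cells (cDC1s) were examined in splenic emergency progenitors (EPs), namely the transcription factor (TF) genes Irf8, Batf3, Id2 and Nfil3, the surface marker genes Xcr1, Clec9a, Cadm1 and Cd8a, and the functional marker genes Wdfy4 and Naaa. They were chosen by name as cDC1 regulators and markers, and are 10 of the 40213 gene symbols in the count files. All 10 were found, and all 10 passed the filter on low counts. The RNA-seq covered CD24+ EPs (CD11c+CD117+) sorted from the spleens of mice 7 to 10 weeks old. WT mice were Topbp1 fl/fl littermates without Cre (2 libraries), and TopBP1cKO mice were Topbp1 fl/fl with CD11c-cre (2 libraries). Both groups carried the floxed alleles, and mice of both groups received 10 μg Flt3L-Ig i.p., first on day 0 and again on day 3, and cells were sorted on day 9. CD11c-cre is driven by the promoter of Itgax, the gene for CD11c, so Cre acts in CD11c+ cells, and CD11c was also part of the sort gate. The methods do not name XCR1 in the gate of the RNA-seq samples, and no source used here says whether a library came from 1 mouse or from pooled mice, so the P values measure only the spread between these samples.

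cDC1s are the dendritic cells that take up dead cells and present their antigens to CD8+ T cells. In the textbook account, IRF8 sets the lineage in progenitors together with PU.1, and BATF3 pairs with JUN proteins and IRF8 at composite DNA elements and keeps Irf8 itself active. NFIL3 acts upstream of ID2, and ID2 blocks E proteins such as TCF4, which otherwise favour plasmacytoid dendritic cells. XCR1 is a chemokine receptor, CLEC9A binds actin exposed on dead cells, CADM1 is an adhesion molecule, CD8α is a coreceptor chain found on mouse lymphoid cDC1s, WDFY4 is required for cross-presentation of cell-associated antigens, and NAAA is a lysosomal hydrolase of fatty acid ethanolamides.

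To show the DNA in front of these genes, the 250 bases upstream of the RefSeq start were read (GRCm38.p6, 5′ to 3′ on the strand of the gene). RefSeq windows were at hand for 9 of the 10 genes, with 2 starts for Irf8 and therefore 10 windows, and Cadm1 had none. The windows of Irf8 (first of its 2 starts; chr8:120736108-120736357, + strand), of the surface markers Xcr1 (chr9:123862030-123862279, − strand) and Clec9a (chr6:129408612-129408861, + strand), whose levels are compared below, and of Cd8a (chr6:71373177-71373426, + strand), the only gene with a motif match, are shown. Capitals mark a match to the ETS–IRF composite motif GGAANNGAA, here read on the opposite strand.
Irf8: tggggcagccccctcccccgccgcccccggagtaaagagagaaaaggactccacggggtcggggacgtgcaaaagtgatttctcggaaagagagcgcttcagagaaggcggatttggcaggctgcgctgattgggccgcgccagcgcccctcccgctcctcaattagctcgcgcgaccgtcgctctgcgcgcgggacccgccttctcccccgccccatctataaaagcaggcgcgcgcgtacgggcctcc
Xcr1: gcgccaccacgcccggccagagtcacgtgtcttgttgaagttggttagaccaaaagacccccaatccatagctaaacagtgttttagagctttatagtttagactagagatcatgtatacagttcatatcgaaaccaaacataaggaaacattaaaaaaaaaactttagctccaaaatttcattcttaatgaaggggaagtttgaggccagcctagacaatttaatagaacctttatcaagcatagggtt
Clec9a: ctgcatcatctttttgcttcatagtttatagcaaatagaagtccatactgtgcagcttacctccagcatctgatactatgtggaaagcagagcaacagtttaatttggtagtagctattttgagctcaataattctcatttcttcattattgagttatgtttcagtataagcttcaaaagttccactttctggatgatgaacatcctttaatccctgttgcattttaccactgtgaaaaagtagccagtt
Cd8a: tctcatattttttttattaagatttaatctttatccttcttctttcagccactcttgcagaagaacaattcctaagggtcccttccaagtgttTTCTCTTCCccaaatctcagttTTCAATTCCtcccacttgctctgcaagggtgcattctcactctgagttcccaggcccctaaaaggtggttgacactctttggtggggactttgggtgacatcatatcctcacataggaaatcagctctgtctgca
The Cd8a window held 2 matches, at −157 to −149 and at −135 to −127 from the start. Of all 32851 RefSeq promoter windows, 6.99% held this motif on either strand. None of the 10 windows held the IRF element GAAANNGAA, the AP-1 site TGANTCA, the NFIL3 site TTANGTAA or the PU.1 site GAGGAAGT, which were in 7.13%, 6.75%, 2.06% and 2.44% of all windows. Matches to GGAANNGAA and GAAANNGAA can overlap one another, and a match is a description of letters, not of binding.

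The libraries were close in depth, from 14561583 to 15193831 counts. Topbp1 itself was at 1102 and 1143 counts in the WT libraries and at 773 and 1279 in those labelled TopBP1cKO. Replicate 2 of the labelled TopBP1cKO group thus held more Topbp1 counts than either WT library, against its label, and the difference between the groups did not pass the test (log2 fold change −0.20, SE 0.21, FDR = 0.774). The counts cover the whole gene and not only a deleted exon, so they are a weak check of the label, and the group is called labelled TopBP1cKO here. The 2 labelled TopBP1cKO libraries also stood apart from each other: the summed level of 20 cell cycle genes was 856 and 840 CPM (counts per 1e6 counts) in WT, 1170 in replicate 1 and 2977 in replicate 2. For that reason each value is given by library. In bulk RNA, fewer cells of a type and less RNA per cell cannot be told apart.

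No member of the 10 differed between the groups at FDR < 0.05 in the edgeR quasi-likelihood test, in which 0.105% of the 12393 genes tested were called (13 genes, 10 higher and 3 lower). Cadm1 was the 1 member with an unadjusted P < 0.05, a bound that 10.7% of all genes passed, and limma-voom, DESeq2 (Wald) and the likelihood ratio test of edgeR also called 0 of the 10. Lower in both labelled TopBP1cKO libraries than in both WT libraries were 4 members (Xcr1, Clec9a, Cadm1 and Naaa), an ordering that 20.8% of all genes showed. None was higher in both, against 22.8% of all genes. The estimated log2 fold changes had a median of −0.14 over the 10 members and 0.01 over all genes tested, with 8 members below 0 and 2 above. With 1 library left out, the median of the members was −0.19 without WT replicate 1 and −0.13 without WT replicate 2. It was −0.12 without replicate 1 and −0.05 without replicate 2 of the labelled TopBP1cKO group.

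**Figure D1:**
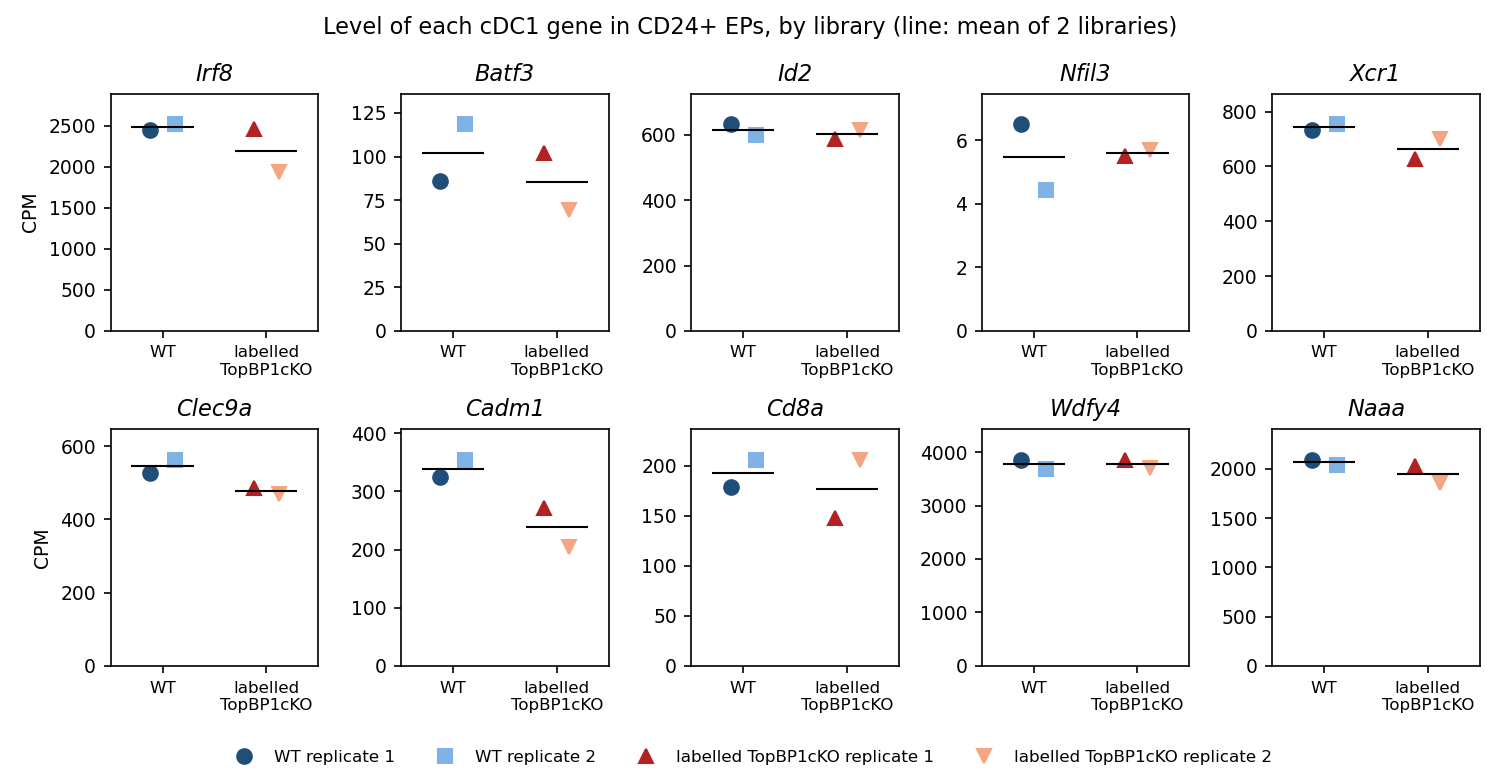
Level of each of the 10 cDC1 genes in CPM (y axis, from 0) in the 2 WT and the 2 labelled TopBP1cKO libraries, 1 point per library, with a line at the mean of 2. Xcr1, Clec9a, Cadm1 and Naaa have both labelled TopBP1cKO points below both WT points, and the groups overlap for the other 6 genes.

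Among the TF genes, Irf8 was at 2442 and 2514 CPM in WT, and at 2456 and 1933 CPM in the labelled TopBP1cKO libraries. Replicate 1 of the latter lay between the WT libraries and replicate 2 below them, at 78.0% of the WT mean. The means were 2478 ± 51.1 CPM (SD, n = 2) and 2194 ± 369.9 CPM (SD, n = 2), a log2 fold change of −0.18 (SE 0.17, 95% interval −0.57 to 0.22, FDR = 0.749). The interval leaves room for folds from 0.674 to 1.16.

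Batf3, the AP-1 family partner of IRF8, followed the same order within the labelled TopBP1cKO group. It was at 85.9 and 118 CPM in WT and at 102 and 69.1 CPM in the labelled TopBP1cKO libraries, so replicate 1 was within the WT range and replicate 2 at 67.6% of the WT mean. The log2 fold change was −0.26 (SE 0.22, 95% interval −0.76 to 0.25, FDR = 0.711). The WT libraries themselves differed by 0.46 on the log2 scale, more than the groups did.

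Id2 and Nfil3 showed no such gap. Id2, the inhibitor of E proteins, was at 632 and 601 CPM in WT and at 589 and 616 CPM in the labelled TopBP1cKO libraries. Its log2 fold change was −0.03, with the narrowest interval among the TF genes (−0.32 to 0.26, FDR = 0.956). Nfil3 was the least abundant member, with 92 and 67 counts in WT and 84 and 88 in the labelled TopBP1cKO libraries. At 5.47 ± 1.46 against 5.60 ± 0.125 CPM (SD, n = 2 each), its log2 fold change of 0.04 had the widest interval of all members, −0.63 to 0.70 (FDR = 0.975), and folds from 0.648 to 1.62 lie inside it.

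Of the surface markers, Xcr1 was at 734 and 753 CPM in WT and at 626 and 701 CPM in the labelled TopBP1cKO libraries. Both labelled TopBP1cKO libraries were below both WT libraries, at 84.2% and 94.3% of the WT mean, and replicate 1 was the lower one. The log2 fold change was −0.16 (SE 0.13, 95% interval −0.47 to 0.14, FDR = 0.699).

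Clec9a, the receptor for dead cells, showed the same ordering. It was at 526 and 564 CPM in WT and at 485 and 470 CPM in the labelled TopBP1cKO libraries (545 ± 26.3 against 478 ± 10.5 CPM, SD, n = 2 each). The log2 fold change was −0.19 (SE 0.12, 95% interval −0.48 to 0.09, FDR = 0.620), a fold of 0.876. Its exons share 184 bases with those of Clec1b on the same strand in the GENCODE M21 annotation, and Clec1b had at most 1 count in any library.

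Cadm1 had the largest estimated difference among the 10 genes. It was at 324 and 354 CPM in WT and at 272 and 204 CPM in the labelled TopBP1cKO libraries, which put these at 80.2% and 60.2% of the WT mean. The log2 fold change was −0.51 (SE 0.16, 95% interval −0.88 to −0.14), with an unadjusted P value of 0.0129 that became FDR = 0.347 over all genes tested by edgeR. Cadm1 therefore did not pass the test, although its own interval lay below 0.

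Cd8a split the labelled TopBP1cKO libraries the other way. It was at 179 and 206 CPM in WT, at 148 CPM in replicate 1 and at 205 CPM in replicate 2 of the labelled TopBP1cKO group, with a log2 fold change of −0.12 (95% interval −0.52 to 0.27, FDR = 0.834). Cd8a is also a T cell gene, so its partner chain was read beside it: Cd8b1 had 11 and 14 counts in WT and 26 and 14 in the labelled TopBP1cKO libraries. There were thus 222 to 230 Cd8a counts for each Cd8b1 count in 3 libraries and 86.7 in replicate 1 of the labelled TopBP1cKO group. Of 8 T cell markers, Cd3d and Cd3e were too low to be tested, and Cd3g was at 0.860 to 2.69 CPM. The summed level of all 8, the untested ones included, was 19.5 and 17.4 CPM in WT. It was 30.9 and 21.5 CPM in the labelled TopBP1cKO libraries. Cd4 and Cd5 were the largest parts of the WT sum, Cd4 at 7.28 and 8.40 CPM and Cd5 at 6.78 and 3.97 CPM. In the labelled TopBP1cKO libraries Cd4 was at 8.47 and 9.38 CPM and Cd5 at 6.83 and 5.69 CPM. Lck was at 1.55 and 2.25 CPM in WT and at 6.10 and 2.26 CPM in the labelled TopBP1cKO libraries. All 6 T cell markers tested had a log2 fold change above 0.

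Of the functional markers, Wdfy4 was at 3859 and 3674 CPM in WT and at 3847 and 3696 CPM in the labelled TopBP1cKO libraries, so both of the latter lay between the WT values (log2 fold change 0.00, 95% interval −0.36 to 0.36, FDR = 0.996). Naaa was at 2094 and 2040 CPM in WT and at 2034 and 1861 CPM in the labelled TopBP1cKO libraries. Both were below WT, replicate 1 only just so, and the log2 fold change was −0.09 (95% interval −0.43 to 0.25, FDR = 0.874).

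**Figure D2:**
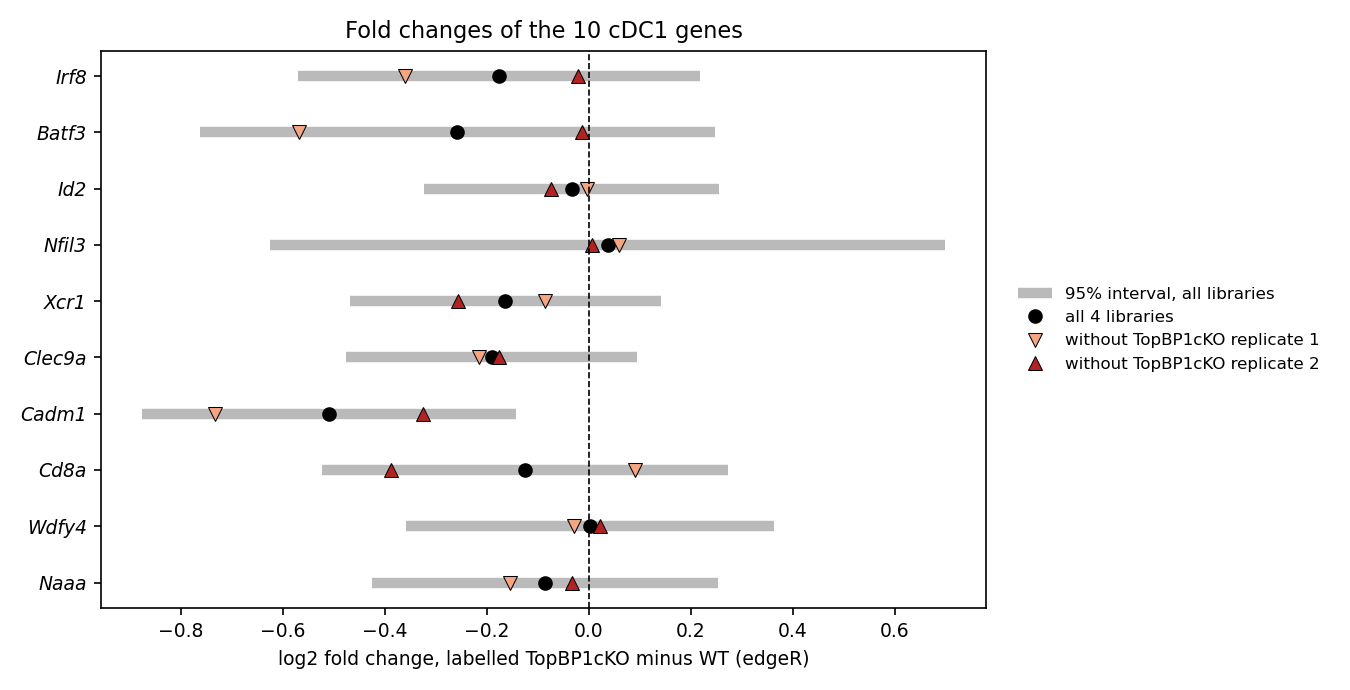
Log2 fold change of each gene (x axis, labelled TopBP1cKO minus WT, edgeR) with all 4 libraries (black point) and its 95% interval (grey bar), and with either labelled TopBP1cKO library left out (triangles). The interval excludes 0 for Cadm1 alone, and the triangles lie farthest apart for Batf3, Cd8a, Cadm1 and Irf8.

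The comparison depended on which labelled TopBP1cKO library was used. With replicate 2 alone against WT, where its spread is assumed to be that of the WT libraries, 3 of the 10 genes were called lower, against 9.33% of the 12788 genes tested in that fit. These were Irf8 (log2 fold change −0.36, FDR = 0.0202), Batf3 (−0.57, FDR = 0.0138) and Cadm1 (−0.73, FDR = 0.000136). With replicate 1 alone, the same genes were at −0.02, −0.01 and −0.33, and no member was called by edgeR (lowest FDR 0.121, for Cd8a at −0.39), against 1.74% of the 12804 genes tested in that fit. At an unadjusted P < 0.05, 3 members were lower, against 5.16% of all genes. Over the 12 alternatives tried, the FDR ran from 0.0202 to 1.00 for Irf8, from 0.0138 to 1.00 for Batf3 and from 0.000136 to 1.00 for Cadm1. Replicate 2 is the library with the highest cell cycle level and with Topbp1 above WT, and the part of either in these values was not tested.

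**Figure D3:**
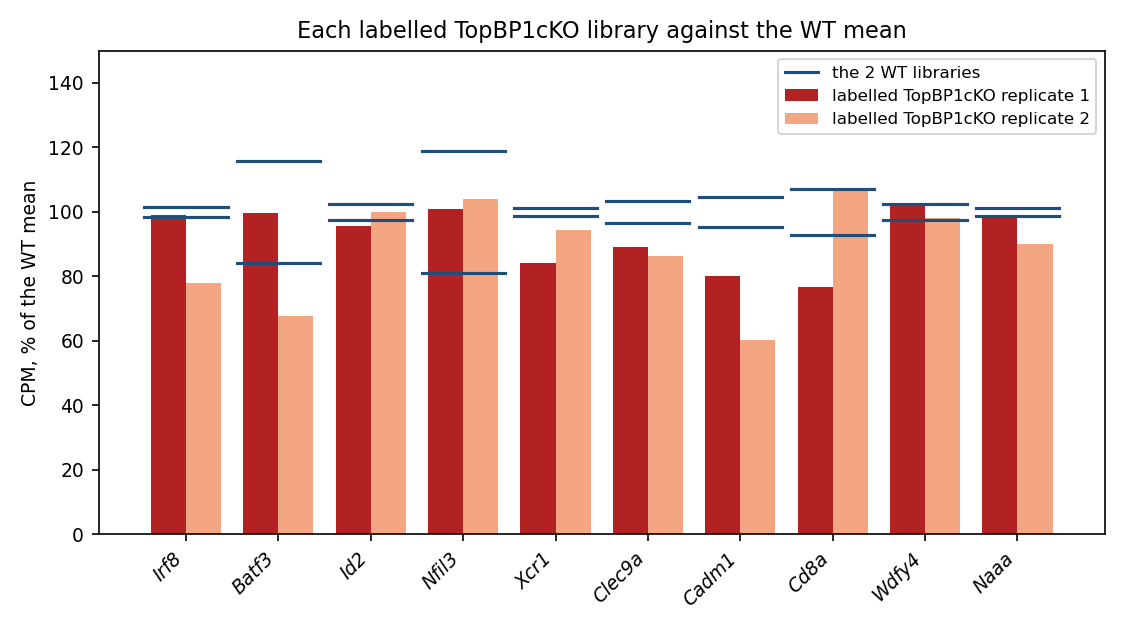
Level of each gene in each labelled TopBP1cKO library as a percentage of the WT mean (bars, from 0), with the 2 WT libraries as lines. Replicate 2 is at 78.0% for Irf8, 67.6% for Batf3 and 60.2% for Cadm1, whereas replicate 1 is the lower of the pair for Cd8a (76.8%) and Xcr1 (84.2%).

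Levels of different genes were compared only per length, as CPM per kb of exon (GENCODE M21 exon union; transcripts expressed here may be shorter). Naaa was highest in WT, at 556 ± 10.2 CPM per kb (SD, n = 2), followed by Wdfy4 at 357 ± 12.4 and Irf8 at 351 ± 7.25, whose libraries overlapped. Id2 came next at 253 ± 9.10, then Xcr1 at 167 ± 3.08 and Clec9a at 166 ± 7.98, which also overlapped. Batf3 at 64.0 ± 14.4 and Cd8a at 52.9 ± 5.27 could not be ordered either, and below them stood Cadm1 at 32.5 ± 2.08 and Nfil3 at 2.70 ± 0.722 CPM per kb. All 10 genes, the cDC1 surface markers among them, were thus detected in these sorted cells. The genes of the gate were detected too, and none of the 3 passed the test. Itgax was at 620 and 614 CPM in WT and higher in both labelled TopBP1cKO libraries, at 690 and 649 CPM (log2 fold change 0.12, FDR = 0.775). Kit, which encodes CD117, was at 481 and 475 CPM in WT and lower in both, at 395 and 383 CPM (−0.30, unadjusted P = 0.0362, FDR = 0.436 by edgeR). Cd24a was at 972 and 926 CPM in WT and lower in both, at 885 and 756 CPM (−0.21, FDR = 0.634). The part of these gate genes in the values of the cDC1 genes was not tested.

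The counts of each gene were spread over its transcripts unevenly. Of 48 member transcripts listed, 31 had a count, and Batf3, Id2 and Xcr1 had 1 transcript each. A single transcript held at least 99.3% of the Irf8 counts and at least 97.1% of the Naaa counts in every library. Clec9a and Cd8a were mixed, with the most counted transcript at 54.1% to 62.2% of Clec9a counts and at 51.0% to 62.5% of Cd8a counts. For Cd8a the 2 WT libraries were the extremes of that range. The most counted Cadm1 transcript held 80.8% to 83.1% and had a log2 fold change of −0.51, close to that of the gene, and the second was at −0.52. One minor Cadm1 transcript had 25 and 59 counts in WT and 0 in both labelled TopBP1cKO libraries, at most 1.10% of the gene. Of 26 member transcripts tested, 0 passed FDR < 0.05 by edgeR and 2 had an unadjusted P < 0.05, both of Cadm1. Of all 29581 transcripts tested, 0 passed FDR < 0.05 and 6.82% had an unadjusted P < 0.05. How reads that fit several transcripts were shared out is not given in the sources used here, so transcript shares are less sure than the gene sums.

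**Figure D4:**
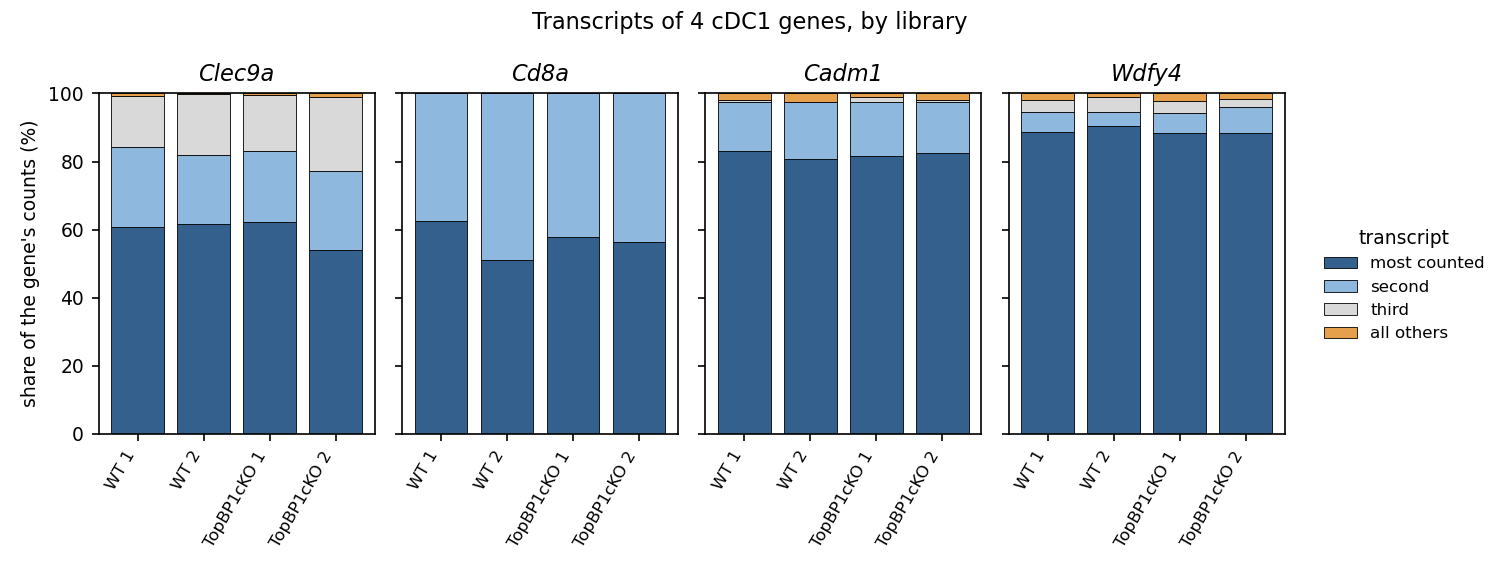
Share of each gene's counts (y axis, %) held by its most counted transcripts in each library, for Clec9a, Cd8a, Cadm1 and Wdfy4. The 2 WT libraries are the extremes for Cd8a, and the most counted Cadm1 transcript stays at 80.8% to 83.1%.

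Other genes of the cDC1 program were read from a list of 21 genes. None passed the test. At an unadjusted P < 0.05 by edgeR, 1 was higher (Itgae) and 4 were lower (Cd36, Tlr11, Clnk and Plpp1). Of all 12393 genes tested, 861 were higher and 467 lower at that bound (10.7% in either direction). In both labelled TopBP1cKO libraries 11 were lower and 1 was higher, against 20.8% and 22.8% of all genes. The list's median log2 fold change was −0.21. It was −0.30 without replicate 1 and −0.15 without replicate 2 of the labelled TopBP1cKO group. Tlr11, a Toll-like receptor for profilin, was at 448 and 421 CPM in WT and at 344 and 329 CPM in the labelled TopBP1cKO libraries (−0.37, FDR = 0.353). Clnk, an adaptor in immune receptor signalling, was at 101 and 101 CPM and at 83.4 and 59.5 CPM (−0.50, FDR = 0.364). Itgae, which encodes CD103, went the other way, at 43.7 and 54.5 CPM in WT and at 71.4 and 89.8 CPM in the labelled TopBP1cKO libraries (0.71, FDR = 0.307). In replicate 2 alone Hepacam2 stood far below WT, at 40.0 CPM against 114 to 121 CPM in the other 3 libraries.

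Partners and regulators of the cDC1 TFs were read from a second list, of 20 genes. None passed the test, and 3 were lower at an unadjusted P < 0.05 by edgeR. At that bound 467 of all 12393 genes tested were lower and 861 higher (10.7% in either direction). The 3 were the AP-1 genes Jun and Jund, whose products can pair with BATF3, and the E protein gene Tcf4. In both labelled TopBP1cKO libraries 10 of the 20 were lower and 4 were higher, against 20.8% and 22.8% of all genes. Jun was at 179 and 168 CPM in WT and at 114 and 113 CPM in the labelled TopBP1cKO libraries (log2 fold change −0.61, SE 0.11, FDR = 0.237). The labelled TopBP1cKO libraries were closer to each other than the WT libraries were. Jund was at 163 and 182 CPM against 133 and 87.8 CPM (−0.64, FDR = 0.346), and Tcf4 at 109 and 121 CPM against 92.0 and 90.0 CPM (−0.33, FDR = 0.389). Spi1, which encodes PU.1, was at 249 and 276 CPM in WT and at 291 and 255 CPM in the labelled TopBP1cKO libraries, with overlapping groups (0.05, FDR = 0.919). Flt3, the receptor of the injected cytokine, was lower in both, at 663 and 614 CPM against 717 and 699 CPM (−0.15, FDR = 0.714).

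Genes of type 2 cDCs (cDC2s) were set beside them. Of 12 listed, 11 were tested and none passed the test. At an unadjusted P < 0.05 by edgeR, 4 were higher (Irf4, Sirpa, Itgam and Clec4a4) and 0 lower. Of all 12393 genes tested, 861 were higher and 467 lower at that bound (10.7% in either direction). In both labelled TopBP1cKO libraries 6 were higher and 0 lower, against 22.8% and 20.8% of all genes. Clec4a4 had few counts, 14 and 27 in WT and 47 and 39 in the labelled TopBP1cKO libraries. The list's median log2 fold change was 0.30. The median was 0.18 without WT replicate 1 and 0.51 without WT replicate 2. It was 0.37 without replicate 1 and 0.21 without replicate 2 of the labelled TopBP1cKO group. Itgam, which encodes CD11b, was at 21.6 and 16.7 CPM in WT and at 44.1 and 77.7 CPM in the labelled TopBP1cKO libraries (1.67, SE 0.27, FDR = 0.153). Sirpa was at 25.4 and 32.0 CPM in WT and at 51.7 and 63.8 CPM in the labelled TopBP1cKO libraries (1.01, SE 0.17, FDR = 0.182). The labelled TopBP1cKO libraries were above both WT libraries for both genes. Neutrophils carry CD11b as well.

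Most markers of neutrophils were higher in the labelled TopBP1cKO group. Of 13 neutrophil markers, 5 were called higher by edgeR (S100a8, S100a9, Ltf, Lcn2 and Ngp), against 0.105% of all genes in either direction. In both labelled TopBP1cKO libraries 11 were higher, an ordering that 22.8% of all genes showed. Mpo and Elane did not follow. Mpo was at 598 and 423 CPM in WT and at 874 and 195 CPM in the labelled TopBP1cKO libraries. Elane was at 98.4 and 65.7 CPM in WT and at 130 and 34.2 CPM in the labelled TopBP1cKO libraries. The summed level of the 13 markers was 1489 and 1234 CPM in WT and 3198 and 2445 CPM in the labelled TopBP1cKO libraries. Ly6g was at 0.860 to 1.13 CPM in WT and at 3.22 and 4.33 CPM in the labelled TopBP1cKO libraries. All 20 cell cycle genes were higher in both labelled TopBP1cKO libraries, with a median log2 fold change of 1.31, or 0.48 without replicate 2. None of them passed FDR < 0.05 by edgeR, and all 20 were higher at an unadjusted P < 0.05. So were 861 of all 12393 genes tested (10.7% in either direction). The part of either list in the values of the cDC1 genes was not tested.

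**Figure D5:**
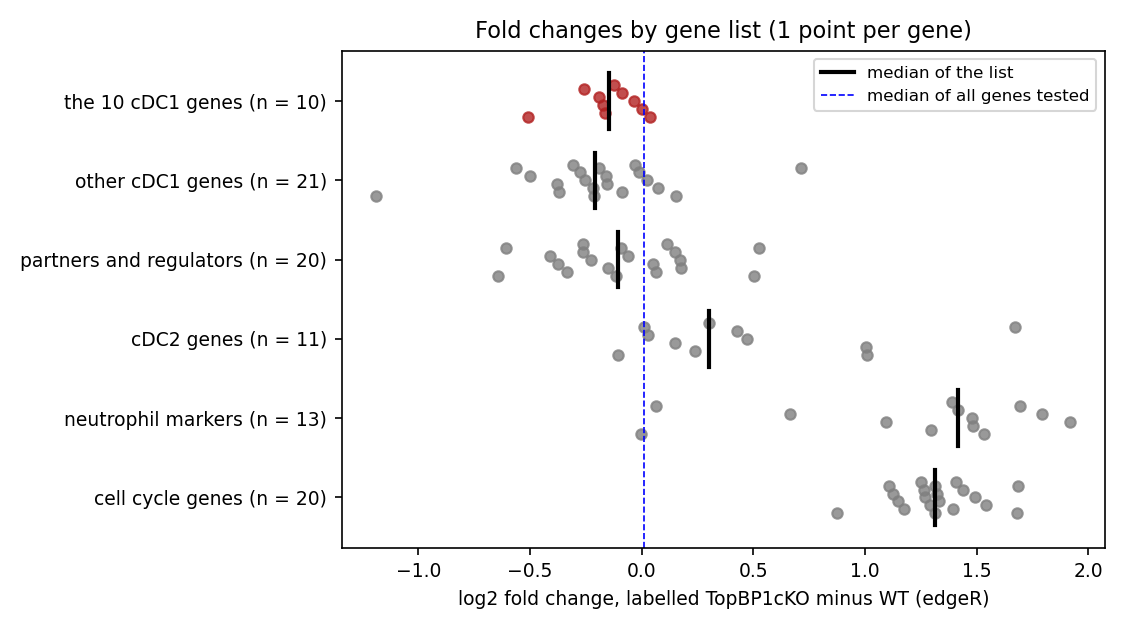
Log2 fold change (x axis, labelled TopBP1cKO minus WT, edgeR) of the tested genes of 6 lists, 1 point per gene, with the median of each list (black bar) and of all genes tested (dashed line). Cd24a, also a gene of the gate, is not drawn, but it is counted in the n and the median of the other cDC1 genes. The 10 cDC1 genes have a median of −0.14 and the other cDC1 genes of −0.21, against 0.30 for the cDC2 genes, 1.41 for the neutrophil markers and 1.31 for the cell cycle genes.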

How the data were processed

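CD24+ EPs from 2 WT and 2 TopBP1cKO mice or pools were profiled by RNA-seq (CORALL RNA-seq V2, per the labels). The authors deposited whole-number counts on each of 137259 transcripts per library, without normalization. The submitters' processing notes name fastp, STAR, Salmon, GATK and the GRCm39 build, with no roles or versions, so the counts may be rounded estimates, and whether molecular identifiers were used is not given in the sources used here. Reads that are not unique molecules are not independent. The files were taken as counts.

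Counts were summed per gene symbol, and 12393 of the 19815 genes with a count passed filterByExpr. Groups came from the labels. They were compared with the edgeR 4.0.16 quasi-likelihood test (TMM, glmQLFit, glmQLFTest, R 4.3.3), and P values were adjusted after Benjamini and Hochberg across all tested genes (FDR). The SE is the absolute log2 fold change divided by √F, and CPM use TMM effective library sizes. The smallest P of an exact permutation test of 2 against 2 is 0.333, so none is given. The coefficient of variation between replicates was 15.2%, and no 2 libraries were duplicates (chi-square per degree of freedom from 11.8). The genes named are the 10 members, Topbp1, genes of 13 other lists on which a result turns, and Clec1b, which overlaps Clec9a. The members and lists were chosen with earlier results of these data known, so no P adjusted over a list is given. Clec1b, Hepacam2 and the order of replicates were described after their values were seen. Alternatives were DESeq2 1.42.0 (size factors, Wald test), upper quartile, the edgeR likelihood ratio test, limma-voom (limma 3.58.1), other filters, single transcripts, a replicate block and leaving out each library. Promoters are RefSeq, GRCm38.p6, and exon lengths GENCODE M21; neither is the build of the files, so no coordinates were carried over. The lists not described in the Results had 1 gene called, the pDC marker Cox6a2 (higher, FDR = 0.00762 by edgeR). It had 0 and 3 counts in WT and 183 and 168 in the labelled TopBP1cKO libraries. Of 8 pDC markers tested, 5 had a log2 fold change above 0 and 3 below. The gate markers, described above, had a summed level of 1787 to 2073 CPM over the 4 libraries. For the lists not described it was 391 to 437 CPM for mature DC genes and 123 to 140 CPM for pDC markers. It was 10.7 to 23.2 CPM for NK cell and 28.2 to 38.8 CPM for B cell markers. Macrophage markers were at 37.3 to 49.0 CPM and erythroid markers at 13.1 to 18.5 CPM.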

Additional observations from a re-analysis of the deposited data

How the results depend on the processing

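With all 4 libraries, no alternative called a member of the 10, and of 120 member values under an alternative 108 kept their direction and side of the threshold. The signs that turned were those of Id2 without WT replicate 1 (−0.081 to 0.0031 over the libraries left out), Nfil3 without WT replicate 2 (−0.23 to 0.34), Cd8a without TopBP1cKO replicate 1 (−0.39 to 0.090), and Wdfy4 with DESeq2 size factors (−0.0028), the DESeq2 Wald test (−0.0028), no filter on low counts (−0.0024), at least 10 counts in every library (−0.00094), without WT replicate 2 (−0.045) and without TopBP1cKO replicate 1 (−0.029), with 0.037 as its highest value. Leaving out 1 library gave 0 to 3 members called lower, 0 to 3 other cDC1 genes higher and 0 to 7 lower, 0 to 2 partners higher and 0 to 7 lower, 0 to 4 cDC2 genes higher, and 1 to 1432 genes of all higher and 0 to 1193 lower. The extremes came without TopBP1cKO replicate 1 (1432 and 1193) and without WT replicate 2 (1 and 0). Without TopBP1cKO replicate 2 the counts over all genes were 142 and 81.

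The DESeq2 Wald test called 104 genes higher and 33 lower, and the edgeR likelihood ratio test 180 and 54. Each called 1 other cDC1 gene higher (Itgae), 1 partner lower (Jun) and 2 cDC2 genes higher (Itgam and Sirpa). No filter gave 16 genes higher, upper quartile normalization 0 lower, and single transcripts 0 and 0. The cause of these shifts was not tested. Over all genes tested, same-numbered libraries did not deviate together (correlation of deviations −0.0147). That value does not measure a pairing that acts on some genes only. The replicate block called 395 genes higher and 109 lower, with 1 other cDC1 gene higher (Itgae), 1 lower (Hepacam2), 2 partners lower and 2 cDC2 genes higher, and 0 members (lowest FDR 0.0565, Cadm1). With 2 libraries a group, the 95% interval of a member's fold was as wide as 0.648 to 1.62, for Nfil3, which had 67 to 92 counts.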
